A study of Mus musculus with 2 samples.

Results

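The Mir17-92 cluster is a group of 6 microRNA genes, Mir17, Mir18, Mir19a, Mir20a, Mir19b-1 and Mir92-1, that lie within 836 bases of chromosome 14. Its members were chosen by position, as the microRNA genes of the annotation between bases 115043671 and 115044506 on the plus strand of mm10, and they make up 6 of the 1973 microRNA genes counted. All 6 had at least 10 reads in each library, as did 312 of the 1973 genes, so every member entered the results below. The data are microRNA-seq libraries made with inserts under 30 bases out of total liver RNA of 2 newborn (postnatal day 0) B6NCrl pups. The labels give pup 2 and pup 1 the same pregnancy number and name no treatment, and each gave 1 library, so there is 1 group of 2 replicates and no second condition. Sex was not recorded.

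The cluster is made as a single primary transcript, the host RNA Mir17hg, which Drosha and Dicer cut into hairpins and then into mature microRNAs of about the length of the inserts. Its transcription is driven by Myc and E2f factors in dividing cells. Its microRNAs are best known for lowering the pro-apoptotic factor Bcl2l11 and the cell cycle inhibitor Cdkn1a, and the cluster is known in mouse for its part in lung and B-cell development and in Myc-driven tumours. The newborn liver holds dividing hepatocytes beside the last of the fetal blood-forming cells, and RNA of whole liver mixes them. In such bulk RNA, fewer cells of a type and less RNA per cell cannot be told apart.

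A microRNA finds its targets mainly through its seed, bases 2 to 8 counted from the 5′ end. The 6 members carry 4 different seeds, and Mir17 and Mir20a share one, as do Mir19a and Mir19b-1. The arm that usually acts in silencing is shown here for each member in cluster order, because the seeds set the families used below and the rest of each arm decides which reads can be told apart. The sequences are those of RefSeq on build GRCm38.p6, written 5′ to 3′ with the seed in capitals.
miR-17-5p of Mir17: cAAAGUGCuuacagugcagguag
miR-18a-5p of Mir18: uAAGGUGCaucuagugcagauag
miR-19a-3p of Mir19a: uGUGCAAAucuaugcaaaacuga
miR-20a-5p of Mir20a: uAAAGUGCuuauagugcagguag
miR-19b-3p of Mir19b-1: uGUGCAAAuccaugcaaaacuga
miR-92a-3p of Mir92-1: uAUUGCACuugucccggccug

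Counted from the 5′ end, miR-17-5p and miR-20a-5p differ by C1U and C12U, and miR-19a-3p and miR-19b-3p differ by U11C alone. The seed of miR-18a-5p is one substitution away from that of miR-17-5p, A4G, and the arms differ at 6 of 23 positions in all. Relatives of these genes sit in 2 other clusters, Mir106a-363 on the X chromosome and Mir106b-25 on chromosome 5. Their arms with the miR-17 seed are shown next, because they are counted beside Mir17 and Mir20a below.
miR-106a-5p of Mir106a: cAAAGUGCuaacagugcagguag
miR-20b-5p of Mir20b: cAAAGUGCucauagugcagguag
miR-106b-5p of Mir106b: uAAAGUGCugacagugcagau
miR-93-5p of Mir93: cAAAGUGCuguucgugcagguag

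From miR-17-5p, miR-106a-5p differs by U10A only, and miR-93-5p differs by U10G, A11U, C12U and A13C. From miR-20a-5p, miR-20b-5p differs by U1C and U10C. None of the arms of Mir17, Mir18, Mir19a or Mir20a has an exact copy among the other microRNA hairpins of the annotation, so among annotated microRNAs reads of these arms can be placed at 1 locus.

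The arms of Mir19b-1 and Mir92-1 do have exact copies. The arm miR-19b-3p is also made by Mir19b-2 and the arm miR-92a-3p by Mir92-2, both in the cluster on the X chromosome. A read that maps to several loci was counted on no gene, so reads of these arms reach Mir19b-1 and Mir92-1 only if they extend into bases that differ. The hairpins are shown with the shared arm in capitals to make those bases visible.
Mir19b-1 hairpin: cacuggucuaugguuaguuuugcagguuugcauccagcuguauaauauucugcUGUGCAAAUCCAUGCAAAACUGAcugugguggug
Mir19b-2 hairpin: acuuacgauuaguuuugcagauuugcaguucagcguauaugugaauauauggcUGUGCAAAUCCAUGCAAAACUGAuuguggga
Mir92-1 hairpin: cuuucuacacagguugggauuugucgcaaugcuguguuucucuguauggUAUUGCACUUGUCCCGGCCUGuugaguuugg
Mir92-2 hairpin: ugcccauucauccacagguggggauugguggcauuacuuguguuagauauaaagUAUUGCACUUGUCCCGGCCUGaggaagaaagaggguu

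Around miR-19b-3p, 2 further bases before the arm and 0 bases after it are the same at both loci, a shared run of 25 bases. Around miR-92a-3p the shared run is 22 bases, with 1 base before the arm and 0 after it. The other 4 members have no run of 20 bases in common with another microRNA locus, and their longest shared runs are 13 bases for Mir17 and Mir19a and 17 bases for Mir18 and Mir20a. Counts of Mir19b-1 and Mir92-1 are therefore uncertain and may be too low by an amount that was not measured. Reads at several loci numbered 2044197 in pup 2 and 1520712 in pup 1.

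**Figure D1:**
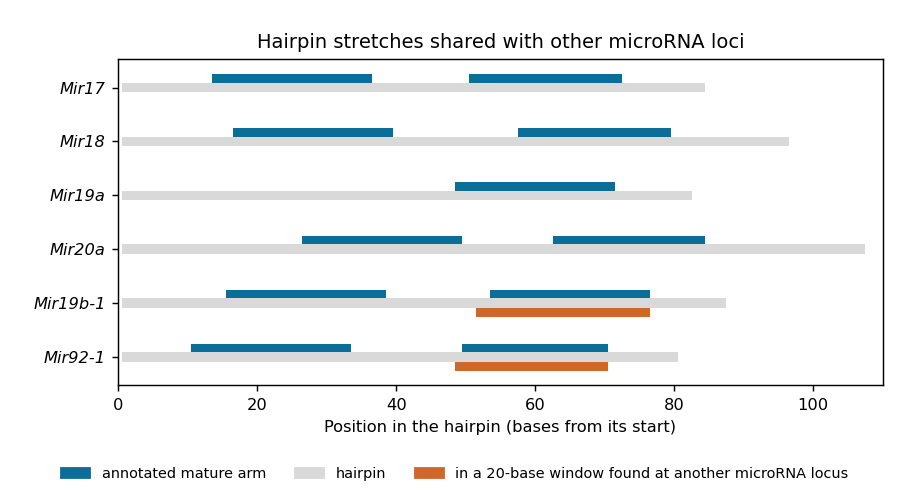
Each row is the hairpin of 1 member drawn from its start, with position in bases on the x axis, the annotated mature arms above it in blue and the stretch found at another microRNA locus in windows of 20 bases below it in orange. Only Mir19b-1, with 25 bases, and Mir92-1, with 22 bases, have such a stretch, and in both it covers the arm near the end of the hairpin.

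On mm10 the hairpins of Mir17 (ENSMUSG00000065508.1, 115043671 to 115043754), Mir18 (ENSMUSG00000065403.1, 115043851 to 115043946) and Mir19a (ENSMUSG00000065416.1, 115044000 to 115044081) come first. Mir20a (ENSMUSG00000065442.1, 115044157 to 115044263), Mir19b-1 (ENSMUSG00000076256.1, 115044305 to 115044391) and Mir92-1 (ENSMUSG00000076062.1, 115044427 to 115044506) follow. All 6 lie inside exon 2 of the noncoding host gene Mir17hg, which spans 115042879 to 115046727 in the annotation. The gaps between neighbouring hairpins are 96, 53, 75, 41 and 35 bases in cluster order. The hairpins are 80 to 107 bases long and alike in base composition, with 43.7% GC in Mir19b-1 at the low end and 47.5% in Mir92-1 at the high end. Their predicted folding energies run between -29.2 kcal/mol for Mir18 and -38.7 kcal/mol for Mir19a. RefSeq places the start of Mir17hg at 115044390, inside the cluster, so its 300-base promoter window overlaps the last 3 hairpins and does not lie before Mir17. The window holds 3 matches to the E-box letters CANNTG, which 72.3% of all 32851 such windows hold. It holds no match on either strand to the full E-box CACGTG (7.15% of windows), the E2f-type letters TTCCCGC (4.60%) and TTGGCGC (2.45%), or the TATA letters TATAAA (13.6%). The sequence around the annotated start at 115042879 was not searched, so these matches cannot tell which letters stand there.

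Levels are gene-strand reads per 1000000 gene-strand microRNA reads of the library (CPM). A read is a whole small RNA, so these levels were not divided by gene length, and they describe the reads captured, since microRNAs differ in how well they ligate. The libraries held 4538427 such reads for pup 2 and 3422622 for pup 1. As a check of the tissue, Mir122, the microRNA that marks hepatocytes, stood at 354939 CPM in pup 2 and 342309 CPM in pup 1. Together the 6 members held 1.64% of the microRNA reads in pup 2 and 1.97% in pup 1, a mean of 1.80% ± 0.230 (SD, n = 2). The exact Clopper-Pearson 95% intervals were 1.63% to 1.65% and 1.95% to 1.98%. Intervals cover counting error of reads only and not the spread between pups. PCR copies of a molecule count as separate reads, so the intervals may be too narrow even for counting error.

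Along the cluster the levels differed widely, although all hairpins come from 1 transcript. Mir17 and Mir20a, which carry the miR-17 seed, were the highest. Mir18 and Mir92-1 formed a middle pair, and both miR-19 genes lay far below the rest. The mean level of Mir17, the highest member, was 1009 times that of Mir19b-1, the lowest. Reads that map to both Mir19b-1 and Mir19b-2 are on no gene, so this ratio may be too high by an amount that was not measured.

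Mir17, the first hairpin and the founder of its seed family, stood at 8501 CPM in pup 2 and 10645 CPM in pup 1, from 38579 and 36434 reads. Its mean of 9573 ± 1516 CPM (SD, n = 2) placed it at rank 21 of all microRNA genes. Mir20a, the fourth hairpin, had 3722 CPM in pup 2 and 4677 CPM in pup 1, a mean of 4199.8 ± 675 CPM at rank 35. Both were lower in pup 2, and the values of Mir20a stayed below those of Mir17 in each pup.

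Mir18, the second hairpin, had 2041 CPM in pup 2 and 2208 CPM in pup 1, a mean of 2125 ± 118 CPM at rank 55. Mir92-1, the last hairpin, had 2106 CPM in pup 2 and 2095 CPM in pup 1, a mean of 2101 ± 7.61 CPM at rank 56. Their order turned between the pups, with Mir92-1 ahead in pup 2 and Mir18 ahead in pup 1. Since reads of miR-92a-3p can be lost to several loci, the place of Mir92-1 in this order is uncertain.

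The microRNAs of the miR-19 seed are known for their part in Myc-driven lymphoma in mouse, and here they were the lowest members. Mir19a, the third hairpin, had 148 reads or 32.6 CPM in pup 2 and 101 reads or 29.5 CPM in pup 1, a mean of 31.1 ± 2.19 CPM at rank 217. Mir19b-1, the fifth hairpin, had 41 reads or 9.03 CPM in pup 2 and 34 reads or 9.93 CPM in pup 1, a mean of 9.48 ± 0.636 CPM at rank 256. The exact 95% intervals were 27.6 to 38.3 CPM in pup 2 and 24.0 to 35.9 CPM in pup 1 for Mir19a, which overlap. Those of Mir19b-1 were 6.48 to 12.3 CPM in pup 2 and 6.88 to 13.9 CPM in pup 1. Neither member was separated between the pups.

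**Figure D2:**
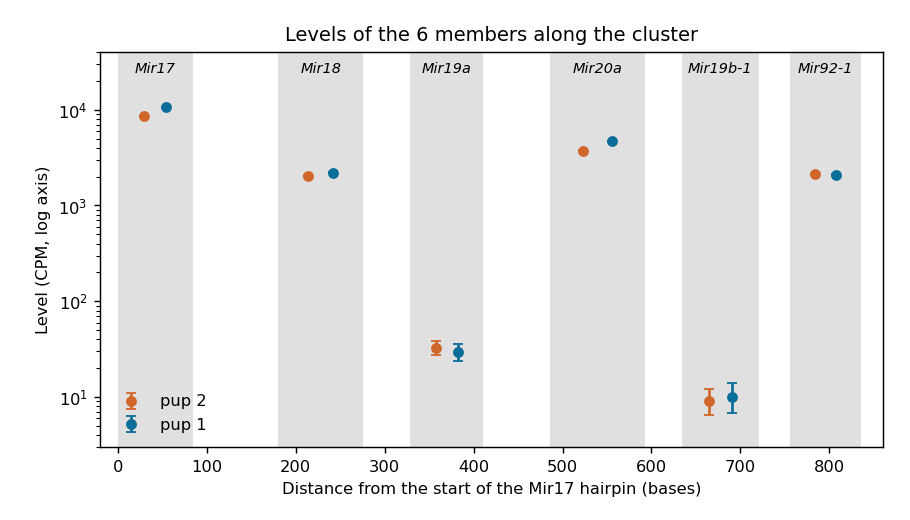
Level of each member in CPM (log axis) against the distance of its hairpin from the start of Mir17 in bases, with pup 2 in orange, pup 1 in blue and exact 95% intervals as bars, which are smaller than the points for the 4 abundant members. Grey bands are the hairpins. Mir19a near 30 CPM and Mir19b-1 near 9 CPM lie between neighbours of 2041 CPM or more in each pup.

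The order by level was Mir17, Mir20a, Mir18 and Mir92-1, Mir19a and Mir19b-1. Of the 5 pairs of neighbours in this order, 4 were separated: each pup value of one gene lay above each of the other, and the means lay further apart than the summed SDs. The exception was Mir18 and Mir92-1, whose ratio of 1.01 ± 0.0598 was within the spread between the pups. With 2 pups the smallest two-sided p of an exact sign-flip permutation test is 0.5, so these gaps carry no p. The level of Mir17 was 2.28 ± 0.00538 times that of Mir20a, the most even ratio of these neighbours, with 2.28 in each pup. Mir20a stood at 1.82 times Mir18 in pup 2 and 2.12 times in pup 1. The widest step between neighbours was that between Mir92-1 and Mir19a, at 67.8 ± 4.54 times, and Mir19a was 3.29 ± 0.452 times Mir19b-1. Of the 6 arms, those of Mir92-1 and Mir19b-1 have an exact copy elsewhere. GC content was 47.8% in miR-17-5p, 39.1% in miR-20a-5p, 43.5% in miR-18a-5p, 57.1% in miR-92a-3p, 34.8% in miR-19a-3p and 39.1% in miR-19b-3p. What part copies, base composition or ligation play in the levels was not tested.

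As shares of the cluster's own reads, Mir17 made up 51.8% in pup 2 and 54.1% in pup 1, and Mir20a made up 22.7% in pup 2 and 23.8% in pup 1. Mir18 held 12.4% in pup 2 and 11.2% in pup 1, and Mir92-1 held 12.8% in pup 2 and 10.7% in pup 1. Mir19a and Mir19b-1 together stayed under 1% in both pups, with 0.199% and 0.0550% in pup 2 and 0.150% and 0.0505% in pup 1. For each of the 4 abundant members the exact 95% intervals of the pups did not overlap, so the make-up of the cluster differed by more than counting error. Differences beyond counting error were the common case among abundant genes. Of the 78 genes with a mean of at least 1000 CPM, 78.2% were called between the pups by the exact binomial test described below.

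**Figure D3:**
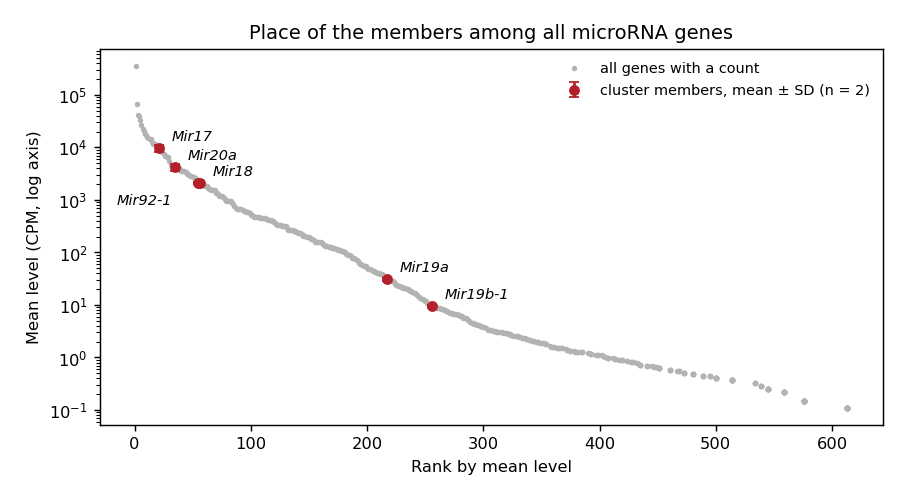
Mean level over the pups in CPM (log axis) against rank for all microRNA genes with a read (grey), with the 6 members in red and their SD over n = 2 pups as bars. Mir17 at rank 21 and Mir20a at rank 35 stand on the steep upper part of the curve, Mir18 and Mir92-1 at ranks 55 and 56, and Mir19a and Mir19b-1 at ranks 217 and 256.

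The genes outside the cluster closest to Mir17 in level were Mir192, Mir23a and Mir127. Likeness was the distance of log2(CPM + 1) over the 2 libraries, with distances of 0.27, 0.28 and 0.29, and rests on 2 values for each gene. Mir192, a microRNA enriched in liver and gut, stood at 8662 CPM in pup 2 and 8829 CPM in pup 1. Mir23a had 10342 and 10420.4 CPM and Mir127, an imprinted microRNA, had 10388 and 10500.1 CPM in pup 2 and pup 1. Mir19b-1 was closest to Mir215, Mir26a-1 and Mir1955, at distances of 0.08, 0.13 and 0.16, with means of 9.67 ± 1.21, 9.78 ± 0.193 and 8.72 ± 0.484 CPM.

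The pups were then compared member by member. The comparison asks whether each member's share of reads differed between these 2 libraries by more than counting error, and it says nothing of a condition. Mir17, Mir20a and Mir18 were lower in pup 2, whereas Mir92-1 and both miR-19 genes did not pass the test. With a two-sided exact binomial test and Benjamini-Hochberg adjustment over 390 genes, 3 of the 6 members were lower in pup 2 and 0 were higher. Of all genes tested, 30.3% were called, 14.4% as lower and 15.9% as higher in pup 2. Among the 78 genes with a mean of at least 1000 CPM, to which 4 members belong, 78.2% were called and 44.9% were called lower in pup 2. A call as such was thus the common case among abundant genes, but it does not give the size of a shift. Of these 78 genes, Mir20a at -0.33 and Mir17 at -0.32 had the most negative log2 ratios, followed by Mir93 at -0.30. The median log2 ratio was -0.13 over the 6 members and 0.00 over all genes tested.

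The log2 ratio of pup 2 over pup 1 was -0.32 for Mir17 (exact 95% interval -0.35 to -0.30, adjusted p = 1.88e-205). For Mir20a it was -0.33 (-0.36 to -0.30, adjusted p = 2.82e-93 in the same exact binomial test), so the genes of the miR-17 seed were 1.25-fold and 1.26-fold lower in pup 2. Mir18 shifted less, by -0.11 (-0.16 to -0.07, exact binomial adjusted p = 2.85e-06). Mir92-1 gave 0.01 (-0.04 to 0.05, exact binomial adjusted p = 0.894). The ratio was 0.14 for Mir19a (-0.23 to 0.52, adjusted p = 0.701) and -0.14 for Mir19b-1 (-0.83 to 0.56, adjusted p = 0.893) in the same exact binomial test. The coefficient of variation between the pups was 15.8% for Mir17 and 16.1% for Mir20a. The negative binomial exact test of edgeR was run with the common dispersion of these libraries, a coefficient of variation of 0.130 as a fraction. It called 0 of the 6 members and 2 of 390 genes (0.513%), and without adjustment 0 members and 12 genes had p under 0.05. Because that dispersion comes from the same 2 libraries that are compared, a missing call does not show equal levels.

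**Figure D4:**
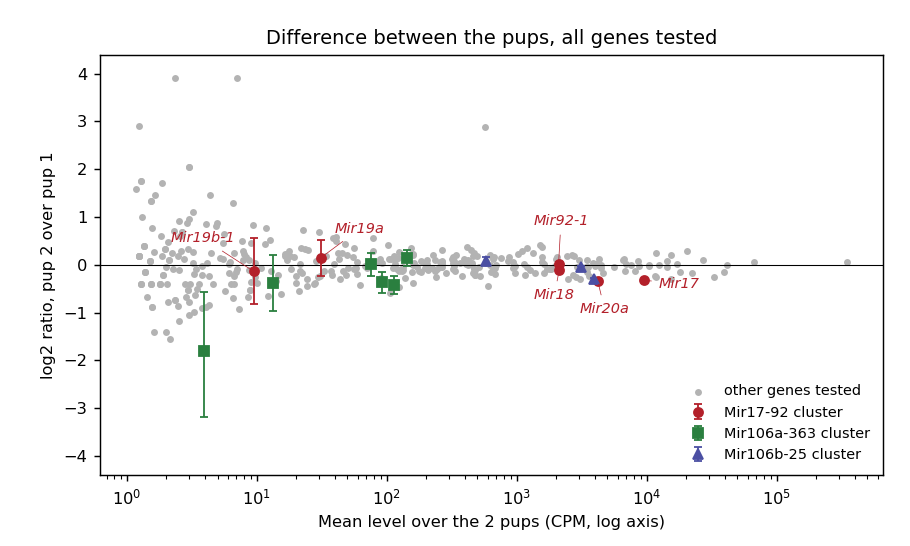
log2 ratio of pup 2 over pup 1 against the mean level in CPM (log axis) for the 390 genes tested (grey), with the Mir17-92 cluster as red circles, the Mir106a-363 cluster as green squares and the Mir106b-25 cluster as blue triangles. Bars are exact 95% intervals. Mir17 lies at -0.32 and Mir20a at -0.33, and Mir92-1 lies at 0.01.

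Ratios inside the cluster do not depend on how library size is measured, and they showed the same unevenness. Mir17 stood at 4.04 times Mir92-1 in pup 2 (exact 95% interval 3.95 to 4.13) and at 5.08 times in pup 1 (4.95 to 5.21). Mir20a stood at 1.77 times Mir92-1 in pup 2 (1.72 to 1.81) and at 2.23 times in pup 1 (2.17 to 2.30). The ratio of Mir17 to Mir18 was 4.16 in pup 2 (4.07 to 4.26) and 4.82 in pup 1 (4.70 to 4.94). Of the 15 pairs of members, 5 had intervals that did not overlap between the pups, and all 5 are pairs among Mir17, Mir18, Mir20a and Mir92-1. The pair of Mir17 and Mir20a was the one of these 4 genes whose intervals did overlap, at 2.24 to 2.33 in pup 2 and 2.23 to 2.32 in pup 1. The members of 1 transcript thus did not shift by 1 common factor between these libraries, as far as counting error goes. Such unevenness was not particular to the cluster. By the exact binomial test 78.2% of the 78 genes of at least 1000 CPM differed between the pups. A chi-square over the 6 members gave 49.1 per degree of freedom, against 49.9 over the 390 genes tested. Pairs of genes that both lie outside the cluster were not compared in this way.

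The seed families extend beyond the cluster, and the 17 genes with one of its 4 seeds were summed by locus. The Mir17-92 cluster supplied 67.8% of their reads in pup 2 and 69.2% in pup 1, a mean of 68.5% ± 0.981 (SD, n = 2). Its summed level was 2.35 ± 0.103 times that of the 3 genes of Mir106b-25, which lies in the gene of the replication helicase subunit Mcm7. It was 40.7 ± 1.97 times that of the 6 genes of Mir106a-363. Each gap exceeded the summed SDs of the loci compared. Reads of miR-19b-3p and miR-92a-3p that map to both Mir17-92 and Mir106a-363 are on no gene. These shares and ratios therefore cover only reads that could be told apart. The arms of a hairpin are counted together, so the sums also hold any reads of the arm that does not carry the seed. For Mir19b-1 and Mir92-1 that other arm has no exact copy among the other microRNA hairpins, and its part in their counts was not measured. The summed log2 ratio of pup 2 over pup 1 was -0.26 for Mir17-92, -0.17 for Mir106b-25 (exact 95% interval -0.19 to -0.15) and -0.16 for Mir106a-363 (-0.26 to -0.07).

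Within the miR-17 seed family of 6 genes, Mir17 and Mir20a held 64.3% of the reads in pup 2 and 66.3% in pup 1. The other large contributors came from the Mir106b-25 cluster. Mir93 had 3534 CPM in pup 2 and 4354 CPM in pup 1, and Mir106b had 3069 CPM in pup 2 and 3187 CPM in pup 1. Mir20a was 1.06 ± 0.0149 times Mir93, so a member of the cluster and a relative on chromosome 5 were nearly equal. Mir106a and Mir20b on the X chromosome were minor, with 97.4 and 80.2 CPM in pup 2 and with 130 and 103 CPM in pup 1. Mir17 was 84.5 ± 3.95 times Mir106a and Mir20a was 45.8 ± 0.843 times Mir20b. Each of these pairs of arms differs at 1 or 2 positions, and reads moved between them by sequencing errors were not measured.

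In the miR-18 family Mir18 held 99.4% ± 0.0810 of the reads, and Mir18b had 53 reads in pup 2 and 52 in pup 1. In the miR-92 family Mir92-1 held 67.9% in pup 2 and 68.7% in pup 1. Mir25 followed with 599 CPM in pup 2 and 569 CPM in pup 1, and Mir92-1 was 3.60 ± 0.114 times as high. The seed arm of Mir25 has no exact copy at another microRNA locus and that of Mir92-1 does, so these counts are not alike in kind. Mir32 had 172 ± 3.63 CPM, Mir92-2 had 144 ± 9.88 CPM and Mir363 had 75.6 ± 0.294 CPM. Mir367, a microRNA of pluripotent cells, had 0 reads in either pup, which allows up to 0.661 CPM in pup 2 and 0.877 CPM in pup 1, the limits that a count of 0 sets. Mir92-1 was 14.7 ± 0.954 times Mir92-2, a ratio that rests on reads placed at 1 locus. Both make the arm miR-92a-3p, but their 5p arms differ and have no exact copy at another microRNA locus. The ratio is therefore not one of the shared arm alone.

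The miR-19 family was the smallest by far, with a summed level of 44.5 ± 1.54 CPM over Mir19a, Mir19b-1 and Mir19b-2, against 21050.2 ± 2894 CPM for the miR-17 family. Mir19b-2 had 8 reads in pup 2 and 21 in pup 1. The cluster held 95.9% of the family in pup 2 (exact 95% interval 92.2% to 98.2%) and 86.5% in pup 1 (80.2% to 91.5%). Reads of miR-19b-3p at both loci stayed out of these sums.

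**Figure D5:**
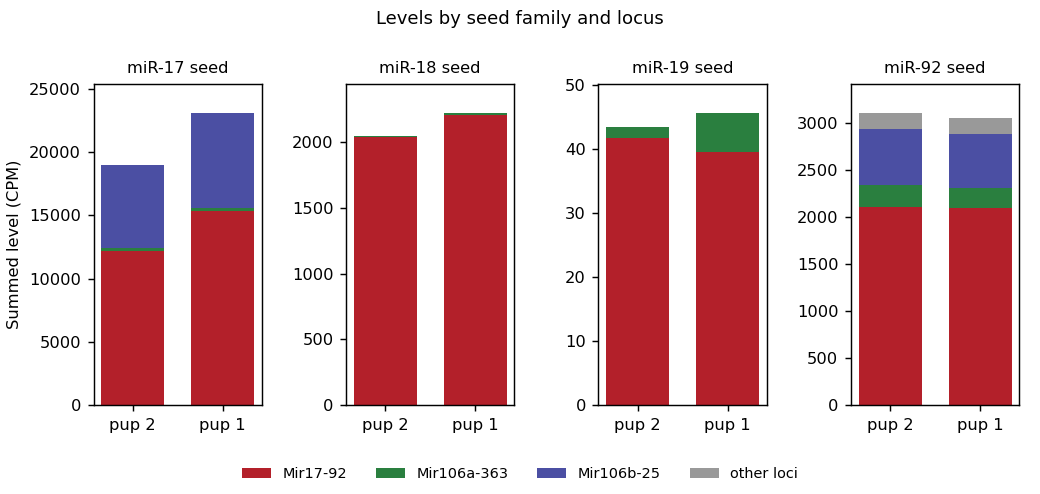
Summed level in CPM of the genes with each of the 4 seeds, stacked by locus, with pup 2 on the left and pup 1 on the right of each panel and a y axis of its own for each panel. The miR-17 family reaches 19004 CPM in pup 2 and 23096 CPM in pup 1, with a large part from Mir106b-25, the miR-18 family is almost all Mir18, and the miR-19 family stays at 45.6 CPM or less.

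Between the pups, all 6 genes of the miR-17 family were called lower in pup 2, with log2 ratios between -0.42 for Mir106a and -0.05 for Mir106b, and Mir93 at -0.30 was close to Mir17 and Mir20a. In the miR-19 family Mir19b-2 was called lower, at -1.80 on 8 reads in pup 2 and 21 in pup 1 (exact binomial adjusted p = 0.00848). In the miR-18 family Mir18 was called and Mir18b, at -0.38, was not. Of the 5 genes of the miR-92 family that were tested, 0 were called in either direction, and their ratios lay between -0.04 for Mir32 and 0.14 for Mir92-2. The log2 ratio of the summed family was -0.28 for the miR-17 seed (exact 95% interval -0.30 to -0.27) and 0.02 for the miR-92 seed (-0.01 to 0.06). The lower calls stood against 14.4% of all genes and 44.9% of genes of at least 1000 CPM. These genes lie in 3 clusters with shared primary transcripts and near-identical arms, so they are not independent of each other. With edgeR's negative binomial exact test none of them was called. That test takes its spread from the same 2 libraries, so a missing call does not show equal levels.

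Markers of the cell types in newborn liver were set beside the shift. The summed cluster had a log2 ratio of -0.26 (exact 95% interval -0.28 to -0.25) in pup 2 over pup 1. The 5 of 7 listed leukocyte genes that were analysed, led by Mir223, summed to 9512 CPM in pup 2 and 10398 CPM in pup 1, a log2 ratio of -0.13. Mir223, at -0.13, carries most of that sum, Mir342 had -0.21, Mir155 -0.06 and Mir146 -0.01, and Mir150 went the other way at 0.44. The 3 of 4 listed erythroid genes analysed, led by Mir451a, summed to 5150.0 CPM in pup 2 and 5309 CPM in pup 1, a log2 ratio of -0.04. Mir451a alone was at -0.23 and its neighbour Mir144 at 0.38, and Mir486, at -0.08, was not called. All 6 hepatocyte genes summed to 386542 CPM in pup 2 and 376761 CPM in pup 1, a log2 ratio of 0.04, and Mir122, at 0.05, makes up most of that sum. The other 5 hepatocyte genes had negative log2 ratios, like the cluster: Mir194-2 had -0.22, Mir148a -0.16, Mir101b -0.15 and Mir192 -0.03, all called lower in pup 2 by the exact binomial test, and Mir194-1, with -0.13, was not called. Mir126a, the 1 of 2 listed endothelial genes analysed, had 69174 CPM in pup 2 and 65978 CPM in pup 1, a log2 ratio of 0.07. The 5 of 6 listed mesenchymal genes analysed summed to 15784 CPM in pup 2 and 14991 CPM in pup 1, a log2 ratio of 0.07. Mir143, at 0.08, makes up most of that sum. Mir145a had 0.05, Mir214 -0.01 and Mir199a-2 -0.24, and these 3 were not called. Mir199a-1 had 3 reads in pup 2 and 4 in pup 1 and was not tested. No marker analysed was at 0 in both pups. The leukocyte and erythroid sums thus moved the same way as Mir17 and by less. Of the single genes called by the exact binomial test, Mir223, Mir342, Mir451a and 4 hepatocyte genes did so too. Mir150, Mir144, Mir122, Mir126a and Mir143, also called, went the other way. Among those not called, Mir194-1, Mir155, Mir146, Mir486, Mir214 and Mir199a-2 had negative ratios and Mir145a a positive one. The part of any of these genes in the difference between the pups was not tested.

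No read was counted on the strand opposite to any of the 6 members in either pup. This was not particular to the cluster. Among the other genes with its seeds, only Mir92-2 and Mir25 had an opposite-strand read, 1 each in pup 1 and 0 in pup 2. Summed over all microRNA genes, opposite-strand reads made up 4.25% of uniquely mapped reads in pup 2 and 4.44% in pup 1, a share of reads and not of genes.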

How the data were processed

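MicroRNA-seq was measured in 2 libraries, 1 from the liver of each pup, with replicate numbers from the labels. For each microRNA gene the authors deposited raw counts of reads, and the text files beside them name mm10 as assembly and M4 as annotation. The sources used here name no aligner and no counting program. The files have no header. Column meanings were read from the values: counts without regard to strand equal gene-strand plus opposite-strand counts for every gene. Gene-strand counts were used, without the rows for unassigned reads. Reads at several loci were 24.7% of all reads in pup 2 and 25.2% in pup 1 and are on no gene. The arms of a hairpin are counted together.

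Of 1973 identifiers, 1894 had a symbol in GENCODE M21, also on mm10, and sequences from RefSeq (GRCm38.p6), which held all 17 genes with the 4 seeds. The acting arm of each gene is textbook knowledge and was not measured. Arms and 20-base windows were searched on both strands in 2202 annotated microRNA hairpins, and no genome was searched. Folding used ViennaRNA 2.7.2.

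Counts were scaled per 1000000 of the library total (CPM), with mean and SD over 2 pups. The 390 genes whose counts over both libraries summed to at least 10 entered an exact binomial test at 0.05, two-sided, with Benjamini-Hochberg adjustment over all of them. The labels give no second group, so a quasi-likelihood test was not possible. The negative binomial exact test used edgeR 4.0.16 and size factors came from DESeq2 1.42.0. The common dispersion of that test was estimated from the same 2 libraries taken as 1 group, so it already holds the differences it is set against. A chi-square over the 390 genes gave 49.9 per degree of freedom, so the libraries differ by more than sampling noise and the binomial test sets each gene against counting error alone. P-values measure only the difference between these libraries. The members and lists were chosen with earlier results of these data known. Named genes are the members, the 17 genes with their seeds, the 3 genes nearest in level to the highest and to the lowest member, and the cell type markers, of which only those with an entry were analysed.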

Additional observations from a re-analysis of the deposited data

How the results depend on the processing

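The share of the cluster, 1.80% of microRNA reads, became 2.77% with Mir122 left out of the library total and 1.16% with uniquely mapped and multi-locus reads together as library size. It was 1.64% on all uniquely mapped reads, 1.72% with counts taken without regard to strand, and 1.64% to 1.97% when 1 pup was left out. The median level of the 6 members, 2113 CPM, became 3243 CPM without Mir122 in the total, 1362 CPM with multi-locus reads added, 1914 CPM on all uniquely mapped reads and 2016 CPM without regard to strand. Another library size divides every member alike and leaves ratios between members within a pup as they were. TMM and DESeq2 factors moved neither value by more than its SD.

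Mir17, Mir18 and Mir20a were called between the pups under each other library size, strand and filter tried, with 3 members called each time. With the negative binomial exact test of edgeR, which adds the spread between these same libraries, 0 members and 2 genes were called in place of 118. The log2 ratio of Mir92-1, not called under any setting, was -0.01 on uniquely mapped reads, with and without multi-locus reads. Mir19b-1, with under 100 reads, had no value under the filter of 100 counts in both libraries. Neighbours in the order were separated in 4 of 5 pairs also without regard to strand. With 1 pup left out there is no SD and separation could not be assessed: the order held in 4 of 5 pairs in pup 2 and in 5 in pup 1.

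The cluster's share of the miR-19 family, 91.2%, became 100% when genes whose arm has an exact copy were left out, since only Mir19a is left, and the miR-92 family had no value there, because Mir92-1 itself is left out. Its share was 86.5% to 95.9% with 1 pup left out. No paired analysis was possible because the series used here has 1 group. Depth limits Mir19a and Mir19b-1, the members with the widest exact intervals.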
